A study of Mus musculus with 38 samples.

Results

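Interleukin-2 (IL-2) signalling genes were followed as 10 members of the 31053 gene symbols counted in each table. They are the cytokine gene Il2, the receptor genes Il2ra, Il2rb and Il2rg, the transcription factor genes Stat5a and Stat5b, and the feedback inhibitor genes Cish, Socs1, Socs2 and Socs3. The members were taken by symbol, and all 10 were present in all 4 tables. IL-2 is made by activated T cells and signals through a receptor of an alpha chain (CD25), a beta chain and the common gamma chain, which the receptors for IL-7 and several other cytokines also use. The receptor activates JAK1 and JAK3, which phosphorylate STAT5, and STAT5 in turn raises transcription of Il2ra and of the CIS/SOCS genes, whose products damp cytokine signalling. In T cells IL-2 and STAT5 are known for restraining Th17 differentiation, whereas SOCS3 is known for restraining STAT3 downstream of IL-6 and IL-23.

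RNA sequencing libraries had been made from 2000 sorted mouse T cells each, all from C57/B6 mice. In vitro, naive T cells from IL-23R KO or WT animals, lacking or carrying the receptor subunit for IL-23, had been driven to the Th17Inf state and kept for 2 days with dexamethasone (Dex, a synthetic glucocorticoid) or without it. This gave 4 libraries each of KO Dex, KO control, WT Dex and WT control. In vivo, Th17Inf cells made from naive 2D2 T cells, which carry a transgenic receptor for a myelin antigen, had been transferred into WT recipients to cause experimental autoimmune encephalomyelitis and were sorted at its peak. Donor cells were CHD1 cKO (4 libraries) or CHD1 WT (3 libraries), each from the central nervous system (CNS) and from the draining lymph node (dLN), and GR cKO (4) or GR WT (4), lacking or carrying the glucocorticoid receptor, from the CNS only. CHD1 is a chromatin remodeller. The deleting Cre line, the Dex dose and the animals' ages are not given in the labels, which also do not say that replicate libraries came from separate animals or cultures, so the p-values here reflect variation among libraries, which may be technical.

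Total counts per library ranged over 3320586 to 4732419 in vitro, 4911109 to 6262849 for CHD1 CNS cells, 3148634 to 5158450 for dLN cells and 6281769 to 9159671 for GR cells. The T cell markers Cd3e, Cd3d, Cd3g, Cd4, Lck and Cd2 were detected in every group. The transcript of the glucocorticoid receptor gene Nr3c1 was at 5.18 to 6.09 normalised CPM (CPM, counts over TMM-scaled library totals) in GR cKO and 11.5 to 17.2 in GR WT libraries, while Chd1 overlapped between CHD1 cKO and WT in both tissues (3.09 to 6.55 in cKO and 5.50 to 6.06 in WT dLN), and gene totals do not show which exons were deleted. Il23r counts were lower in IL-23R KO than in WT cultures without overlap but were not absent (1.5 to 5.27 against 5.77 to 15.8). Some libraries stood apart. The 4 KO Dex libraries had 0.359% to 0.447% mitochondrial counts and 30.5% to 37.5% counts on repeat and ribosomal RNA features, against 1.46% to 2.26% and 13.5% to 25.4% in the other 12 in vitro libraries, and a T cell marker sum of 1375 to 1505 normalised CPM, against 1664 to 2131. All CNS libraries carried macrophage and microglia transcripts (10 of 10 markers), and the CHD1 cKO dLN libraries carried CD8 and NK transcripts at 131 to 605 normalised CPM summed, against 15.2 to 25.9 in CHD1 WT dLN. In these bulk samples, fewer cells of a type and less RNA per cell cannot be told apart.

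Promoter sequence was available from RefSeq (GRCm38.p6, the assembly that mm10 names) for 8 of the 10 members, as windows from 250 bases before to 50 after the annotated start. These windows were searched on both strands for the STAT motif TTCNNNGAA, the core GGAAA bound by NFAT, which drives Il2 after T cell receptor signalling and reads as TTTCC on the other strand, the AP-1 motif TGANTCA and the glucocorticoid receptor palindrome, made of AGAACA and TGTTCT with 3 bases between them. The 3 stretches shown hold matches to the NFAT core in Il2 and to the STAT motif in Cish and Socs3, the 2 members with that motif, with the matches in capitals, and positions are counted from 1 at the RefSeq start.
Il2, chr3:37125960-37126134, minus strand, positions -180 to -6: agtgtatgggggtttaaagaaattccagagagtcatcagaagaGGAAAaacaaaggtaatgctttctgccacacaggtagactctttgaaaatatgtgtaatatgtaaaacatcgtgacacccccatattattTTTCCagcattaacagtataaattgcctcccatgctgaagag
Cish, chr9:107296649-107296678, plus strand, positions -10 to 20: ccgcccagttTTCCTGGAAagTTCTTGGAA
Socs3, chr11:117969476-117969546, minus strand, positions -180 to -110: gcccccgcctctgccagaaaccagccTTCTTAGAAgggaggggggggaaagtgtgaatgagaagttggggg

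The Il2 window held the NFAT core at positions -137 and -47. Cish held 2 STAT motifs, at positions 1 and 12, each of which overlaps a GGAAA core, and Socs3 held 1 at -154. The STAT motif was absent from the windows of Il2, Il2ra, Il2rg, Stat5a, Stat5b and Socs1. Of 32851 promoter windows of this length in the table, 8.3% held the STAT motif and 61.3% the GGAAA core. The AP-1 motif (7.81% of windows) and the full glucocorticoid receptor palindrome (0.00913%) were found in none of the members' windows. The matches are letters in a short window and were not tested as binding sites.

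In culture, Il2 was the member with the largest difference. It had 0.599, 3.40, 10.2 and 2.91 normalised CPM in the 4 KO Dex libraries, against 118, 169, 45.9 and 121 in KO control. It had 22.2, 23.5, 12.6 and 18.2 in WT Dex, against 150, 87.7, 102 and 100 in WT control. In both genotypes every Dex library lay below every control library, and the KO Dex libraries also lay below the WT Dex libraries (log2 -2.14 ± 0.54, adjusted p = 0.00362). Il2 fell with Dex by 4.71 ± 0.47 on the log2 scale in KO cells (SE; adjusted p = 3.27e-07) and by 2.52 ± 0.37 in WT cells (adjusted p = 0.000388; edgeR quasi-likelihood test, Benjamini-Hochberg adjusted over 10813 genes, which also holds for the in vitro values below). The KO Dex value rests on 2, 10, 36 and 11 raw counts. The difference between the 2 Dex effects was -2.20 ± 0.63 (adjusted p = 0.0135), and leaving out each of the 16 libraries in turn left it between -3.10 and -1.84 with adjusted p at most 0.0365. Without KO Dex library 7, the highest of its group, the Dex value in KO was -5.62 and that of KO against WT under Dex -3.05.

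**Figure D1:**
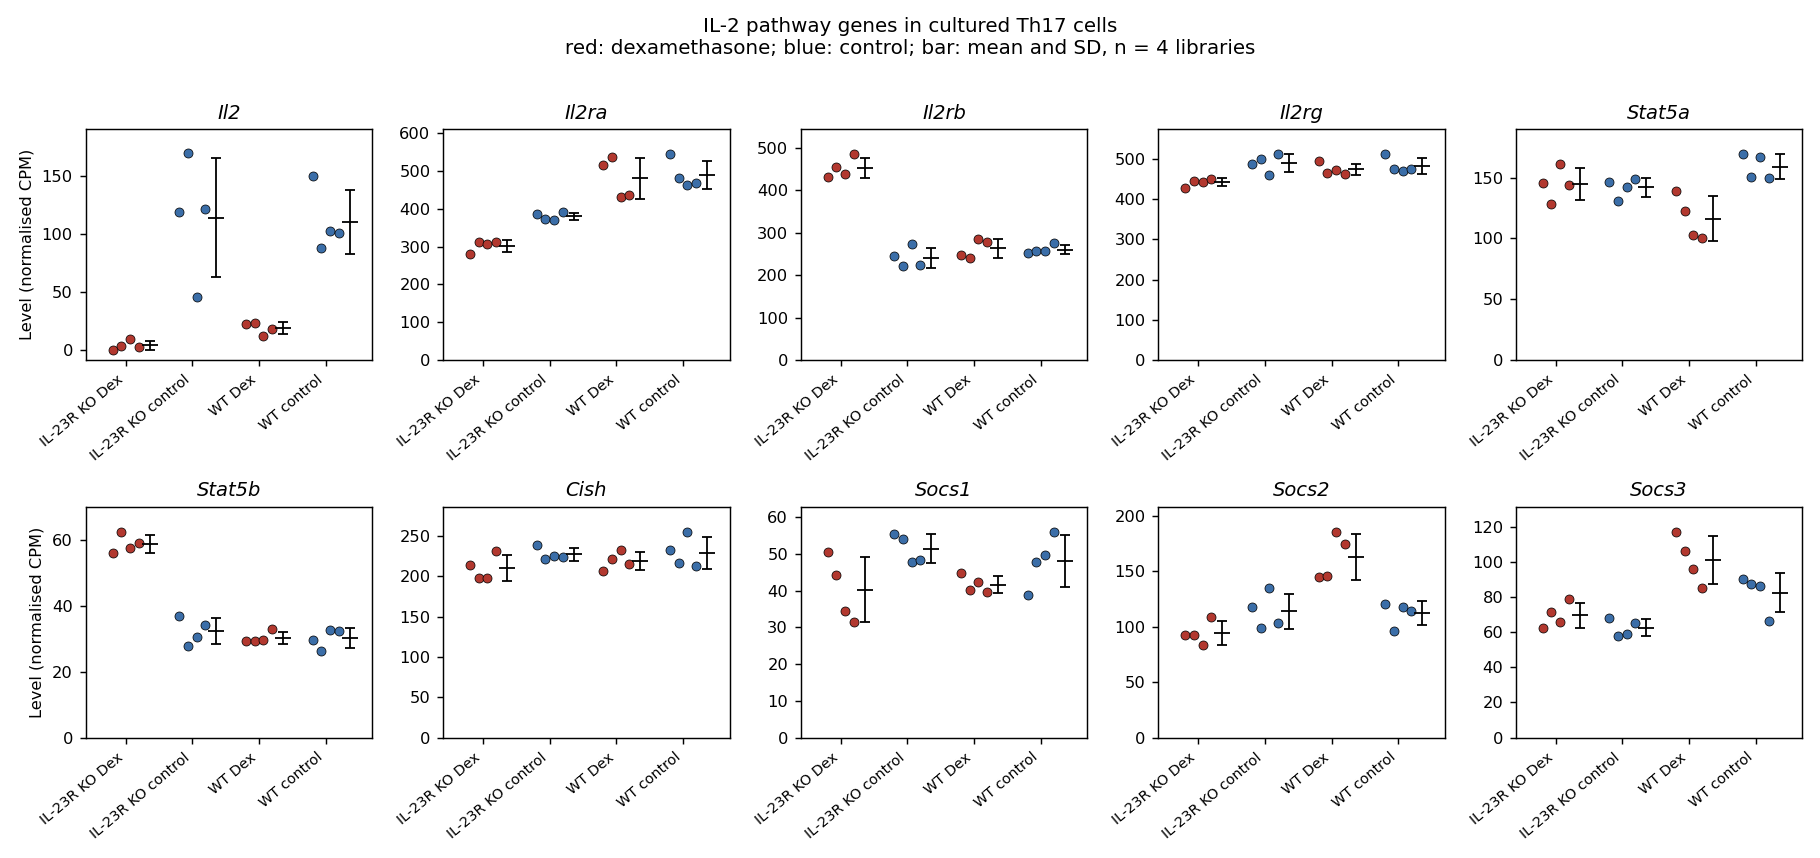
Normalised CPM (y axis) of the 10 members in each of the 16 in vitro libraries, by group (x axis), with Dex libraries in red, control libraries in blue, and the mean and SD beside them. Il2 lies at 0.599 to 10.2 in IL-23R KO Dex and at 12.6 to 23.5 in WT Dex, against 45.9 to 169 in the controls, while Il2rb and Stat5b are highest in IL-23R KO Dex.

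A gene is named as called, risen or fallen where its adjusted p was under 0.05. Across all genes, Dex called 54.7% of those tested in KO cells and 8.08% in WT cells, and the interaction called 32.2%. Of the members, 2 of 10 rose and 4 fell in KO cells, where 27.3% and 27.4% of all genes did, so this share is near the background. In WT cells 1 rose and 2 fell, where 3.88% and 4.2% of all genes did. The interaction called 6 of 10 members. Between genotypes under Dex, 45.9% of genes were called (22.2% higher and 23.7% lower), and 3 members rose and 4 fell in KO against WT. Without Dex, 1 member fell and none rose. The median log2 fold change of the members was -0.13 in KO and -0.03 in WT, against 0.01 in both for all genes. The 2 Dex contrasts use different libraries, but the KO against WT contrasts and the interaction reuse them, so these results are not independent. The mitochondrial and repeat shares and the T cell marker sum given above separate KO Dex from the other 3 groups, and their part in the KO Dex values was not tested.

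Among the receptor chains, the 3 genes differed in direction. Il2ra, encoding the alpha chain that raises affinity for IL-2, had 280, 312, 306 and 313 normalised CPM in KO Dex, against 386, 373, 371 and 391 in KO control. WT Dex libraries had 516, 538, 432 and 437, against 545, 481, 464 and 470 in WT control. All KO libraries lay below all WT libraries, and within the KO all Dex libraries lay below all controls, while the WT groups overlapped. Il2ra fell by 0.33 ± 0.08 with Dex in KO cells (adjusted p = 0.00171), and the WT value was -0.03 ± 0.08 (adjusted p = 0.878). In KO against WT cells it fell by 0.67 ± 0.08 with Dex (adjusted p = 2.71e-06). Without Dex it was the only member called, at -0.37 ± 0.08 (adjusted p = 0.0319, where 0.684% of all genes were called and 0.462% were lower). That call was lost when any 1 of the 8 libraries was left out (adjusted p 0.0519 to 0.121). The Il2ra interaction of -0.30 ± 0.11 (adjusted p = 0.0423) was lost in 10 of 16 such repeats (without WT control 2, 3 or 4, KO control 5, 6 or 8, WT Dex 1 or 2, or KO Dex 5 or 7, adjusted p up to 0.0894).

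Il2rb, encoding the signalling beta chain shared with the IL-15 receptor, had 431, 454, 438 and 485 normalised CPM in KO Dex, against 246, 222, 272 and 224 in KO control. The WT libraries had 248, 241, 286 and 278 with Dex and 251, 256, 258 and 275 without. The 4 KO Dex libraries lay above the other 12, which overlapped each other. Il2rb rose 1.88-fold with Dex in KO cells (log2 0.91 ± 0.08, adjusted p = 4.16e-08), against a WT value of 0.02 ± 0.08 (adjusted p = 0.926). The interaction was 0.89 ± 0.11 (adjusted p = 1.29e-05), and under Dex Il2rb was 1.72-fold higher in KO than in WT cells (0.78 ± 0.08, adjusted p = 4.12e-07).

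Il2rg, the common gamma chain gene, differed little between groups. It averaged 442 ± 9.53 normalised CPM in KO Dex, 490 ± 22.7 in KO control, 474 ± 14.4 in WT Dex and 482 ± 19.7 in WT control (SD, n = 4 each). The KO Dex libraries (428 to 450) lay below the KO control libraries (459 to 512), and the fall of 0.15 ± 0.05 was called (adjusted p = 0.0235). It was lost without KO control library 8 (adjusted p = 0.0674) or KO Dex library 5 (0.066).

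The STAT5 genes lie side by side on chromosome 11 and encode closely related proteins. Stat5b had 56.0, 62.6, 57.6 and 59.3 normalised CPM in KO Dex, against 37.0, 27.9, 30.7 and 34.4 in KO control. It had 29.4, 29.2, 29.8 and 32.9 in WT Dex and 29.6, 26.2, 32.8 and 32.5 in WT control. As with Il2rb, the KO Dex libraries lay above the other 12. Stat5b rose 1.81-fold with Dex in KO cells (log2 0.86 ± 0.10, adjusted p = 1.52e-06), was at 0.00 ± 0.10 in WT cells (adjusted p = 0.987), and had an interaction of 0.85 ± 0.14 (adjusted p = 0.000221).

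For Stat5a the Dex call was in WT cells. It had 139, 123, 103 and 100 normalised CPM in WT Dex, against 169, 150, 167 and 149 in WT control. KO libraries had 146, 128, 161 and 144 with Dex and 146, 131, 142 and 149 without. The WT groups did not overlap, and the KO groups did. Stat5a fell with Dex by 0.45 ± 0.10 in WT cells (adjusted p = 0.00835), and the KO value was 0.03 ± 0.10 (adjusted p = 0.823). The interaction was 0.48 ± 0.14 (adjusted p = 0.0146). Under Dex, Stat5a was 0.32 ± 0.10 higher in KO than in WT cells with overlapping groups (adjusted p = 0.0156), a call lost without WT Dex 3 or 4 or KO Dex 7 (adjusted p up to 0.0589). The same contrast for Stat5b was 0.96 ± 0.10 (adjusted p = 8.47e-07).

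The ratio of Stat5a to Stat5b counts was 2.05 to 2.79 in KO Dex, 3.95 to 4.70 in KO control, 3.04 to 4.74 in WT Dex and 4.60 to 5.74 in WT control. The 4 KO Dex libraries had the lowest 4 ratios. Of the 50-base stretches of the transcripts, 8.52% of those of Stat5a and 11% of those of Stat5b occur in another gene, mostly in each other. Part of their counts may depend on how reads were divided, and how much was not measured.

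The inhibitors differed in direction. Cish, a STAT5 target whose product CIS docks on cytokine receptors, had 214, 198, 198 and 231 normalised CPM in KO Dex, against 239, 221, 225 and 224 in KO control. It had 207, 221, 232 and 215 in WT Dex and 232, 216, 256 and 213 in WT control. The 4 groups overlapped, and no in vitro contrast called Cish, its log2 values lying between -0.11 and -0.01. Il2 in the same libraries spanned 0.599 to 169 normalised CPM. Pearson's r between log2 normalised CPM of Il2 and Cish over these 16 libraries was 0.44, and a link between the 2 genes was not tested.

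Socs2, best known for restraining growth hormone signalling, had 144, 146, 186 and 174 normalised CPM in WT Dex, against 120, 96.1, 118 and 114 in WT control. It had 92.2, 92.6, 83.2 and 109 in KO Dex and 118, 99.1, 135 and 103 in KO control. The WT Dex libraries lay above the other 12. Socs2 rose 1.45-fold with Dex in WT cells (log2 0.53 ± 0.11, adjusted p = 0.0072), and in KO cells the value was -0.27 ± 0.12 (adjusted p = 0.0665), which became a call without KO control 6 (0.0348) or KO Dex 8 (0.0285). The interaction was -0.80 ± 0.16 (adjusted p = 0.00136), and under Dex the KO over WT value was -0.78 ± 0.12 (adjusted p = 4.13e-05).

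Socs3 had 62.6, 71.5, 65.7 and 79.2 normalised CPM in KO Dex, against 117, 107, 96.4 and 85.2 in WT Dex. It had 68.2, 57.9, 59.0 and 65.6 in KO control and 90.4, 87.3, 86.4 and 66.3 in WT control. With Dex the genotypes did not overlap, and Socs3 fell by 0.54 ± 0.12 in KO against WT cells (adjusted p = 0.00114). Without Dex the value was -0.40 ± 0.12 (adjusted p = 0.164). The interaction, -0.14 ± 0.16, was not called (adjusted p = 0.544), so a difference between these genotype effects was not shown. Dex over control was not called for Socs3 either, at 0.16 ± 0.12 in KO (adjusted p = 0.279) and 0.30 ± 0.11 in WT (adjusted p = 0.125). Socs1, encoding an inhibitor of JAK kinases, was at 50.6, 44.3, 34.4 and 31.5 in KO Dex and 55.4, 54.0, 47.8 and 48.4 in KO control. Socs1 fell with Dex in KO cells by 0.36 ± 0.14 (adjusted p = 0.0339) with overlapping groups. The call was lost in 4 of 8 repeats that left out 1 library (KO control 5 or 6, KO Dex 7 or 8, adjusted p up to 0.123). In WT cells the Socs1 value was -0.21 ± 0.13 (adjusted p = 0.386). The interaction, -0.15 ± 0.19, was not called (adjusted p = 0.577), so a difference between the Dex effects on Socs1 was not shown.

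**Figure D2:**
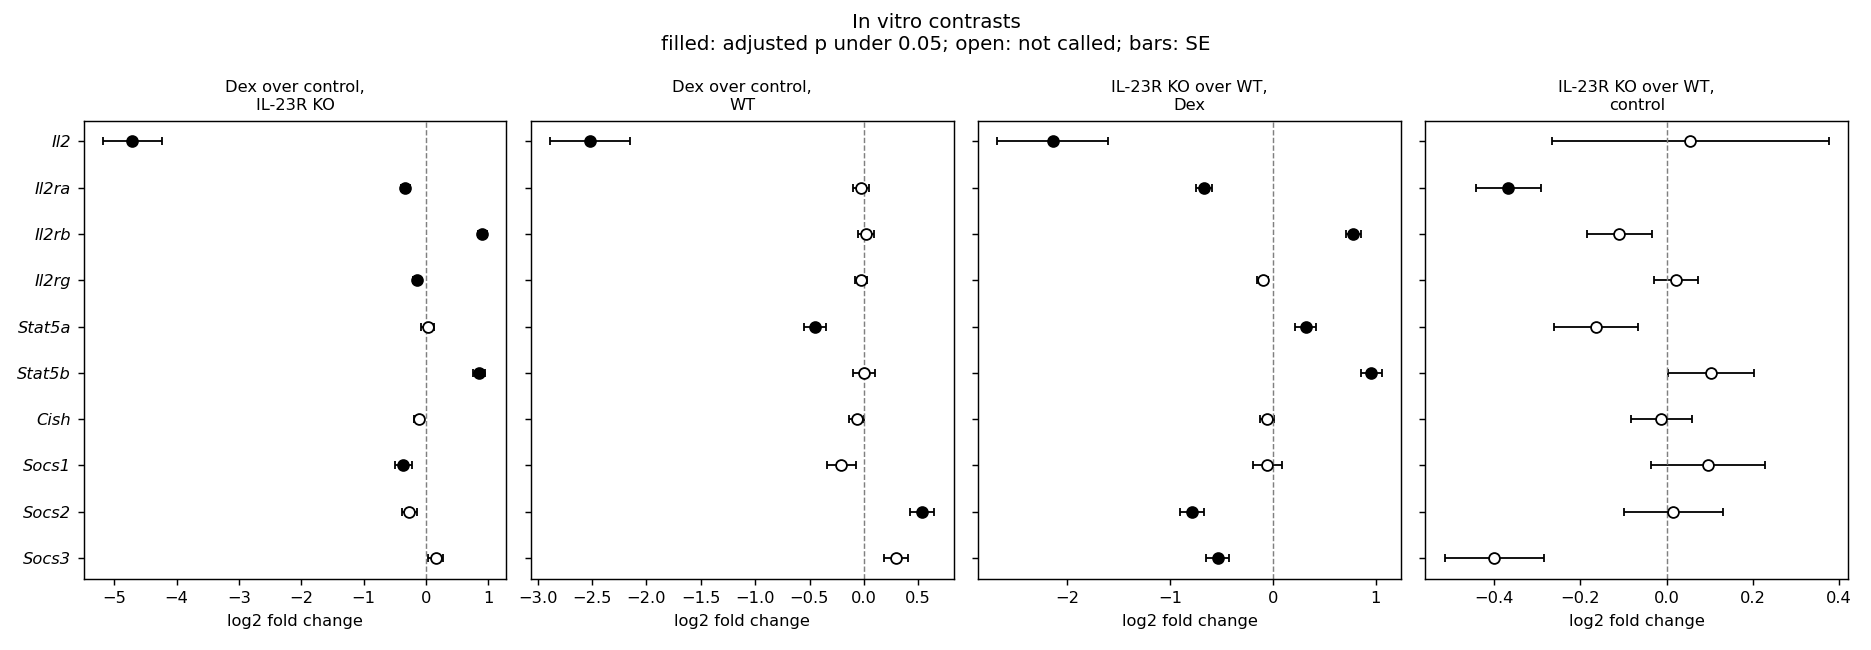
Log2 fold change with its SE (x axis) of each member (y axis) in the 4 in vitro contrasts, with filled points for an adjusted p under 0.05. Il2 is at -4.71 in IL-23R KO and -2.52 in WT for Dex over control, and Il2rb and Stat5b are called in the KO Dex panels only, at 0.78 to 0.96.

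The pathway around the members was described from lists, each to be read against the 27.3% of all genes that rose and 27.4% that fell with Dex in KO cells, and the 3.88% and 4.2% in WT cells. The median log2 fold change of all genes was 0.01 in both. Among 10 IL-2 receptor partners and JAKs, 6 rose and none fell with Dex in KO cells, and 3 rose and none fell in WT cells. In KO cells the share called in either direction, 6 of 10, is near the 54.7% of all genes. All 6 were in 1 direction, higher, where 27.3% of all genes rose. Jak1, which binds the beta chain, rose by 1.00 ± 0.06 in KO (adjusted p = 2.44e-09) and 0.26 ± 0.06 in WT (adjusted p = 0.0173). Jak3, which binds the gamma chain, rose by 0.99 ± 0.07 (adjusted p = 9.51e-09) and 0.30 ± 0.07 (adjusted p = 0.017). The median of the list was 0.57 in KO and 0.20 in WT. Of 16 tested regulators of Il2 transcription, 9 rose and 2 fell in KO and 1 rose and 1 fell in WT. Rel, an NF-kB subunit needed for Il2 induction, fell by 0.80 ± 0.12 in WT cells (adjusted p = 0.000646), and Cd28, the costimulatory receptor gene, rose there by 0.60 ± 0.09 (adjusted p = 0.000622). In KO cells Nfkb1 rose by 1.36 ± 0.10 (adjusted p = 8.52e-09) and Jun, an AP-1 subunit, by 1.66 ± 0.15 (adjusted p = 7.81e-08).

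Genes known to be raised by IL-2 and STAT5 did not all share a direction. Of 19 tested, 13 rose and 6 fell in KO with Dex, and 2 rose and 4 fell in WT. The list medians were 0.46 in KO and 0.02 in WT, against 0.01 in both for all genes. The survival gene Bcl2 rose in both, by 1.52 ± 0.11 in KO (adjusted p = 9.23e-09) and 0.64 ± 0.11 in WT (adjusted p = 0.00143). Bcl2l1, encoding BCL-XL, fell in both, by 0.62 ± 0.08 in KO (adjusted p = 3.21e-06) and 0.78 ± 0.08 in WT (adjusted p = 9.75e-06). Tnfrsf4, encoding OX40, also fell in both, by 0.97 ± 0.06 in KO (adjusted p = 3.14e-09) and 0.29 ± 0.06 in WT (adjusted p = 0.00802). Among 8 other tested genes of the gamma chain family, 2 rose and 2 fell in KO and none rose and 2 fell in WT. Il4 fell by 2.63 ± 0.26 in KO (adjusted p = 3.33e-07) and by 1.92 ± 0.22 in WT (adjusted p = 3.77e-05). Il7r, encoding the IL-7 receptor alpha chain, rose in KO by 1.44 ± 0.17 (adjusted p = 1.66e-06). Of 10 other STAT brakes tested, 1 rose and 3 fell in KO and none was called in WT. Of the 5 other STATs, 2 rose and 3 fell in KO and none was called in WT. Of 6 tested genes known to be lowered by IL-2 and STAT5, 2 rose and 1 fell in KO and 2 rose in WT. In KO against WT controls, 1 gene was called in each of 3 lists, where 0.222% of all genes rose and 0.462% fell. Stat4 rose by 0.65 ± 0.12 (adjusted p = 0.012), Pim1 fell by 0.60 ± 0.12 (adjusted p = 0.0212) and Cd28 fell by 0.65 ± 0.10 (adjusted p = 0.00229).

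Likeness of pattern was measured over the 16 in vitro libraries by Pearson's r of log2 normalised CPM among 6181 genes, without a test. The libraries share culture, scaling and the separation of KO Dex, so r is given again over the other 12. For Il2 the nearest genes included Psma6 (r = 0.963, and 0.955 over 12), Utp15, Mapre2 and Acsl5. For Il2ra the nearest was Il17a, the signature cytokine gene of Th17 cells (r = 0.972, and 0.933 over 12), followed by Acadl (0.950 and 0.925), Ide, S100a6 and Rnh1. For Socs3 they were Stom (0.898 and 0.943), Enpp2, Gatm, Il17f and Ltb4r1. Cish had no close partner, its nearest being Mdh1 (0.771 and 0.622), Mrpl47, Gatsl3, Guk1 and Mrps34. These lists depend on the measure, since by Spearman's rho 0 of the 5 nearest genes were shared for Il2, and 2 of 5 each for Il2ra, Cish and Socs3.

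In vivo, most members were higher in CNS than in dLN cells. Tissue here also differs in table and in preparation, since the CNS was digested with collagenase and lymph nodes were dispersed mechanically, and these cannot be told apart. All CHD1 CNS libraries held macrophage and microglia transcripts at 2376 to 4906 normalised CPM summed over 10 markers, against 9.70 to 76.3 in the dLN libraries, and their part in the tissue values was not tested. Over 11589 genes, the contrast called 47.3% in cKO (24.6% higher and 22.7% lower) and 16.7% in WT (11.8% higher and 4.93% lower). Of the members, 8 of 10 rose and 1 fell in cKO cells, and 5 of 10 rose and none fell in WT cells. The median log2 value of the members was 1.62 in cKO and 1.02 in WT, against -0.02 and -0.01 for all genes. Il2, which is among the 8 and in both medians, was too low to be tested within the dLN libraries alone.

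Il2 was low in vivo, at 6.28, 48.2, 2.16 and 31.7 normalised CPM in cKO CNS, against 0.259, 0, 3.65 and 0.859 in cKO dLN. A count of 0 in cKO dLN library 2 allows up to 0.894 normalised CPM (3 counts). WT CNS libraries had 7.29, 5.07 and 16.8, against 0.275, 1.62 and 0.288 in WT dLN, where the counts were 1, 5 and 1. The WT tissues did not overlap, and cKO dLN library 3 lay above cKO CNS library 3. Il2 rose by 4.19 ± 1.00 on the log2 scale in cKO CNS (adjusted p = 0.00346), and the WT value of 3.75 ± 1.37 was not called (adjusted p = 0.0762). Within the dLN libraries alone Il2 was too low to be tested, and it passed the filter of this fit through the CNS libraries. Leaving out 1 library in turn moved the cKO value between 3.47 (without CNS library 2) and 5.80 (without dLN library 3), with adjusted p at most 0.0133.

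Of the receptor genes, Il2ra and Il2rb were higher in the CNS. Il2ra had 53.8, 118, 65.2 and 73.7 normalised CPM in cKO CNS, against 16.9, 9.83, 17.4 and 24.3 in cKO dLN. It had 47.2, 79.4 and 79.6 in WT CNS, against 27.5, 34.0 and 29.9 in WT dLN. CNS and dLN did not overlap in either genotype, and Il2ra rose 4.53-fold in cKO (log2 2.18 ± 0.28, adjusted p = 2.82e-05) and 2.26-fold in WT (1.17 ± 0.31, adjusted p = 0.0175). The WT call was lost in 4 of 6 repeats that left out 1 library (CNS 2 or 3, dLN 1 or 3; adjusted p up to 0.0736). Il2rb had 286, 249, 283 and 338 in cKO CNS, against 98.1, 132, 128 and 139 in cKO dLN. WT libraries had 287, 302 and 320 in CNS and 156, 159 and 163 in dLN. Il2rb rose 2.33-fold in cKO (1.22 ± 0.12, adjusted p = 2.61e-06) and 1.90-fold in WT (0.93 ± 0.14, adjusted p = 0.000324). Il2rg averaged 634 ± 148 in cKO CNS and 592 ± 55.8 in cKO dLN (SD, n = 4 each), and 649 ± 51.7 in WT CNS and 505 ± 64.9 in WT dLN (SD, n = 3 each), and was not called.

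Of the STAT5 targets among the inhibitors, Cish had 134, 161, 131 and 177 normalised CPM in cKO CNS, against 37.9, 25.0, 37.1 and 49.2 in cKO dLN. It had 153, 147 and 188 in WT CNS, against 50.9, 73.7 and 67.7 in WT dLN. The tissues did not overlap. Cish rose 4.03-fold in cKO (2.01 ± 0.19, adjusted p = 1.29e-06) and 2.54-fold in WT (1.34 ± 0.21, adjusted p = 0.000437).

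Socs2 had 48.4, 47.4, 56.4 and 68.2 in cKO CNS, against 6.23, 7.75, 14 and 14.9 in cKO dLN. WT libraries had 60.1, 49.9 and 58.7 in CNS and 33.0, 37.5 and 23 in dLN. Again the tissues did not overlap, and Socs2 rose 5.15-fold in cKO (2.36 ± 0.25, adjusted p = 3.71e-06) and 1.80-fold in WT (0.85 ± 0.26, adjusted p = 0.0346). The WT call was lost in 5 of 6 repeats, all but the one without dLN library 2 (adjusted p up to 0.146).

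Socs3 had the largest WT tissue difference among called members. It had 76.9, 143, 87.3 and 63.2 normalised CPM in cKO CNS, against 29.3, 19.1, 19.9 and 10 in cKO dLN. It had 34.1, 76.8 and 52.1 in WT CNS, against 11, 8.73 and 7.78 in WT dLN. CNS lay above dLN throughout, with a rise of 4.71-fold in cKO (2.24 ± 0.33, adjusted p = 7.9e-05) and 5.90-fold in WT (2.56 ± 0.41, adjusted p = 0.00053). Socs1 had 14.8, 39.6, 14.1 and 21.4 in cKO CNS and 16.9, 11.3, 12.9 and 9.45 in cKO dLN, and it rose by 0.83 ± 0.30 with overlap (adjusted p = 0.0343). Without cKO CNS library 2, its highest, the value was 0.41 (adjusted p = 0.14), and 5 of 8 such repeats lost the call (CNS 2 or 4, dLN 2, 3 or 4). In WT cells Socs1 was at 1.11 ± 0.38 (adjusted p = 0.0563), without overlap.

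Stat5b was the member that fell, while Stat5a rose in cKO CNS. Stat5b had 13.8, 15.1, 10.4 and 14.7 normalised CPM in cKO CNS, against 24.4, 20.3, 22.5 and 19.5 in cKO dLN. WT libraries had 18.1, 19.5 and 19.7 in CNS and 16.8, 17.1 and 16.7 in dLN. The cKO CNS libraries lay below the cKO dLN libraries, and Stat5b fell by 0.68 ± 0.14 in cKO (adjusted p = 0.00112), while the WT value was 0.18 ± 0.16 (adjusted p = 0.512). Stat5a averaged 36.3 ± 4.68 in cKO CNS and 26.9 ± 1.05 in cKO dLN (SD, n = 4 each) and rose by 0.43 ± 0.15 (adjusted p = 0.0273). That call was lost in 4 of 8 repeats (without CNS 2, or dLN 2, 3 or 4; adjusted p up to 0.0759). In WT cells the value was 0.52 ± 0.17 (adjusted p = 0.0543), and it was called without CNS library 1 (0.70, adjusted p = 0.00823).

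**Figure D3:**
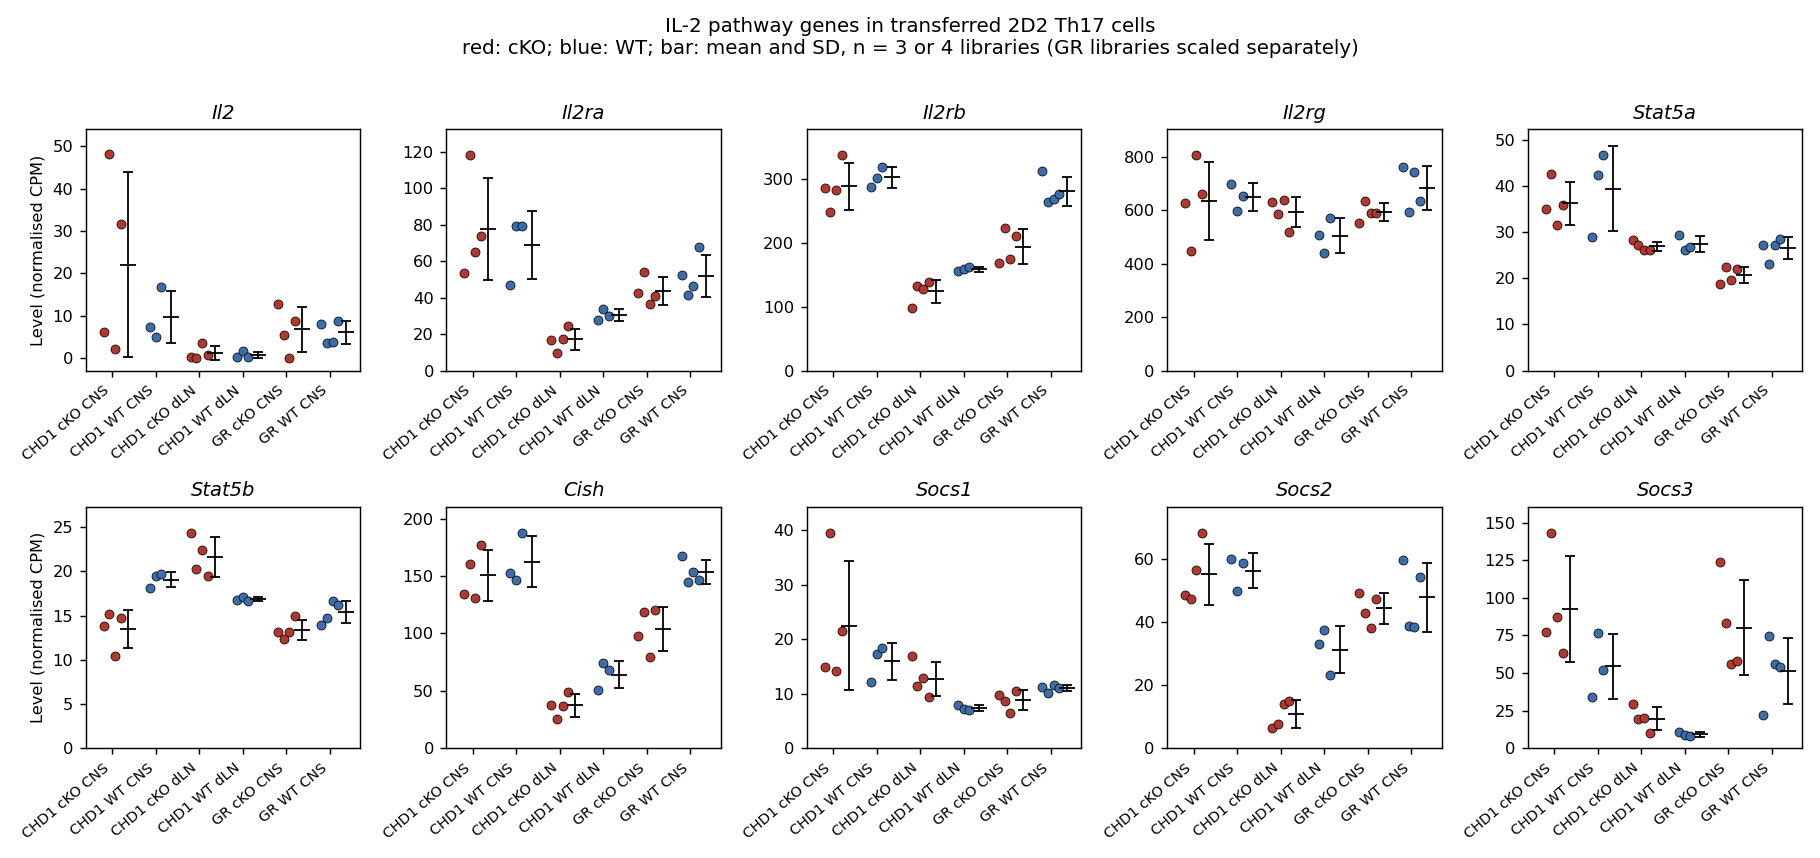
Normalised CPM (y axis) of the 10 members in each in vivo library, by group (x axis), with cKO libraries in red, WT libraries in blue, and the mean and SD beside them. Cish is at 131 to 188 in the CHD1 CNS libraries, against 25.0 to 73.7 in dLN, and Socs2 is at 6.23 to 14.9 in CHD1 cKO dLN, against 23 to 37.5 in CHD1 WT dLN.

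The libraries were also scaled to their 6 T cell markers in place of all genes, an alternative chosen after the data were seen. The median of all genes was then at 0.11 in the cKO and -0.33 in the WT tissue contrast, against -0.02 and -0.01 under TMM scaling. Scaling to T cell markers called 6 of 10 members in cKO (Il2, Il2ra, Il2rb, Cish, Socs2 and Socs3, all higher). It called 2 of 10 in WT, Cish at 1.01 (adjusted p = 0.0466) and Socs3 at 2.28 (adjusted p = 0.0101). Of all genes, this scaling called 3719 in cKO and 1241 in WT, against 5480 (47.3%) and 1938 (16.7%) under TMM scaling.

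The pathway lists were also compared between tissues, where 24.6% of all genes rose and 22.7% fell in cKO and 11.8% rose and 4.93% fell in WT. Of 20 genes known to be raised by IL-2 and STAT5, 10 rose and 1 fell in cKO CNS, and 9 rose and 1 fell in WT CNS. The list medians were 1.44 and 1.25, against -0.02 and -0.01 for all genes. Bcl2l1 rose by 1.90 ± 0.14 in cKO (adjusted p = 1.05e-07) and 1.45 ± 0.15 in WT (adjusted p = 1.49e-05). Tnfrsf18, encoding GITR, rose by 2.02 ± 0.18 (adjusted p = 7.33e-07) and 1.72 ± 0.20 (adjusted p = 3.43e-05). Of 8 genes known to be lowered by IL-2 and STAT5, 7 fell and none rose in cKO, and 5 fell and 1 rose in WT, with medians of -2.46 and -1.43. Tcf7 fell by 2.66 ± 0.20 in cKO (adjusted p = 1.64e-07) and 1.64 ± 0.22 in WT (adjusted p = 0.000127), and Il7r fell by 2.20 ± 0.28 (adjusted p = 2.65e-05) and 1.82 ± 0.32 (adjusted p = 0.00121). Among the 17 regulators of Il2, 7 rose and 5 fell in cKO and 5 rose and 2 fell in WT. Jun rose by 7.32 ± 0.29 in cKO (adjusted p = 6.32e-10) and 7.35 ± 0.34 in WT (adjusted p = 1.59e-08). In the gamma chain family, 4 of 8 rose and 1 fell in each genotype, with Il21 higher by 4.23 ± 0.66 in cKO (adjusted p = 0.000149) and 3.65 ± 0.65 in WT (adjusted p = 0.00132). Within the dLN libraries alone, only 15 of the 17 regulators and 5 genes of the gamma chain family could be tested. Jun and Il21 were too low there and passed the filter of this fit through the CNS libraries. Their values rest on low dLN counts, and such genes are included in the list counts and medians. Receptor partners and JAKs split, 3 rising and 3 falling of 10 in cKO and 2 rising in WT. Of 11 other STAT brakes, 2 fell in cKO and none was called in WT. Of 5 other STATs, 2 rose and 1 fell in cKO and 2 rose in WT, among them Stat3, at 0.37 ± 0.12 (adjusted p = 0.0189) and 0.75 ± 0.14 (adjusted p = 0.00151).

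Between CHD1 genotypes in the dLN, 0 of the 9 members tested were called by edgeR, where 0.0714% of 9803 genes were called. At an unadjusted p under 0.05 there were 7 of 9, against 20.1% of all genes, and DESeq2 called 1 (Socs2). Il2 was too low to be tested in that table. Values of the inhibitors differed in direction. Socs2 (6.23 to 14.9 in cKO, 23 to 37.5 in WT) was at -1.55 ± 0.30 (adjusted p = 0.0663), Cish (25.0 to 49.2 in cKO, 50.9 to 73.7 in WT) at -0.79 ± 0.22 (adjusted p = 0.11), and neither overlapped. Socs1 (9.45 to 16.9 in cKO, 6.91 to 7.98 in WT) was at 0.77 ± 0.23 (adjusted p = 0.131) without overlap. Socs3 (10 to 29.3 in cKO, 7.78 to 11 in WT) was at 1.08 ± 0.33 (adjusted p = 0.13) with overlap.

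No receptor or STAT5 gene was called in the dLN. Il2ra (9.83 to 24.3 in cKO, 27.5 to 34.0 in WT) was at -0.84 ± 0.25 (adjusted p = 0.125) and Il2rb (98.1 to 139 in cKO, 156 to 163 in WT) at -0.37 ± 0.13 (adjusted p = 0.172), both without overlap. Stat5b (19.5 to 24.4 in cKO, 16.7 to 17.1 in WT) was at 0.35 ± 0.15 (adjusted p = 0.228), and at 0.19 (adjusted p = 0.497) when scaled to T cell markers. Groups failed to overlap for 4 members lower and 2 higher in cKO, against 8.19% and 8.87% of all genes. The cKO dLN libraries also differed in the CD8 and NK markers given above (3 of 4 detected, Ncr1 at 0) and in the share of T cell receptor beta V counts that were Trbv16, which dominates these cells (91.8% to 98.7% in cKO, 99.2% to 99.5% in WT). The part of these other cells in the members' values was not tested. Without cKO dLN library 4, which has the lowest CD8 and NK sum of the cKO, 5 members were called (Il2ra, Cish, Socs1, Socs2 and Socs3; adjusted p 0.0099 to 0.0397), with 990 genes called in all.

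In the CNS, edgeR called 0 of 10 members between CHD1 genotypes, as did DESeq2, where 0.00896% of 11157 genes were called. At an unadjusted p under 0.05 there were 2 (Stat5b and Socs3), against 11.9% of all genes. Stat5b (10.4 to 15.1 in cKO, 18.1 to 19.7 in WT) was at -0.50 ± 0.17 (adjusted p = 0.32) without overlap (6.69% of all genes did so in this direction), a value of opposite sign to that in the dLN. Scaled to T cell markers it was -0.18 (adjusted p = 0.867), and per 1000 T cell marker counts the groups overlapped (3.90 to 10.9 in cKO, 6.34 to 8.33 in WT). Socs3 (63.2 to 143 in cKO, 34.1 to 76.8 in WT) was at 0.77 ± 0.32 (adjusted p = 0.401). Library 2 of the cKO had the highest Il2, Il2ra, Socs1 and Socs3 of the 7 CNS libraries and the lowest T cell marker sum (1396). Its macrophage and microglia sum of 4134 lay within the cKO range, with 4906 in library 1, 4484 in library 3 and 2588 in library 4. WT libraries had 2376 to 2928. The part of those cells was not tested.

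The genotype by tissue interaction, which asks whether the cKO effect differs between CNS and dLN, called 0 of 10 members by edgeR (0.112% of 11589 genes), with 4 at an unadjusted p under 0.05 (18.9% of all genes) and 2 by DESeq2. Socs2 was at 1.51 ± 0.35 (adjusted p = 0.0748) and Stat5b at -0.86 ± 0.21 (adjusted p = 0.0819), and both were called without cKO dLN library 4 (adjusted p = 0.0156 and 0.0325). Scaled to T cell markers, Socs2 was at 1.95 (adjusted p = 0.105) and Stat5b at -0.37 (adjusted p = 0.651).

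Between GR genotypes in the CNS, edgeR called 0 of 10 members and 0% of 11148 genes, while 3 members and 11% of all genes had an unadjusted p under 0.05, and DESeq2 called Il2rb and Cish. Il2rb had 169, 224, 175 and 211 normalised CPM in GR cKO, against 314, 265, 269 and 278 in GR WT. Cish had 97.8, 119, 79.0 and 120, against 168, 145, 154 and 147 in GR WT. For both, every cKO library lay below every WT library, with log2 values of -0.53 ± 0.11 (adjusted p = 0.186) and -0.56 ± 0.14 (adjusted p = 0.233). Stat5a was at -0.35 ± 0.11 (adjusted p = 0.325), also without overlap. Groups did not overlap for 3.83% of all genes in this direction.

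T cell marker sums were 1571 to 2094 normalised CPM in GR cKO and 2059 to 2892 in GR WT, and macrophage and microglia sums over 10 markers were 3820 to 7434 in GR cKO and 1762 to 4759 in GR WT, with both ranges overlapping. Per 1000 T cell marker counts, Cish was at 62.2, 60.0, 37.7 and 58.6 in GR cKO and 58.0, 63.7, 59.2 and 71.2 in GR WT, so the groups overlapped. Scaled to these markers, Il2rb was at -0.19 (adjusted p = 0.406), Cish at -0.21 (adjusted p = 0.424) and Stat5a at -0.01 (adjusted p = 0.956), with the median of all genes at 0.35. Socs3 had 124, 83.2, 55.9 and 57.6 in GR cKO and 21.8, 74.6, 55.8 and 54.1 in GR WT, and the groups overlapped (0.64 ± 0.36, adjusted p = 0.555). Il2 was at 12.8, 5.44, 0.142 and 8.86 in GR cKO and 8.12, 3.68, 3.78 and 8.72 in GR WT.

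**Figure D4:**
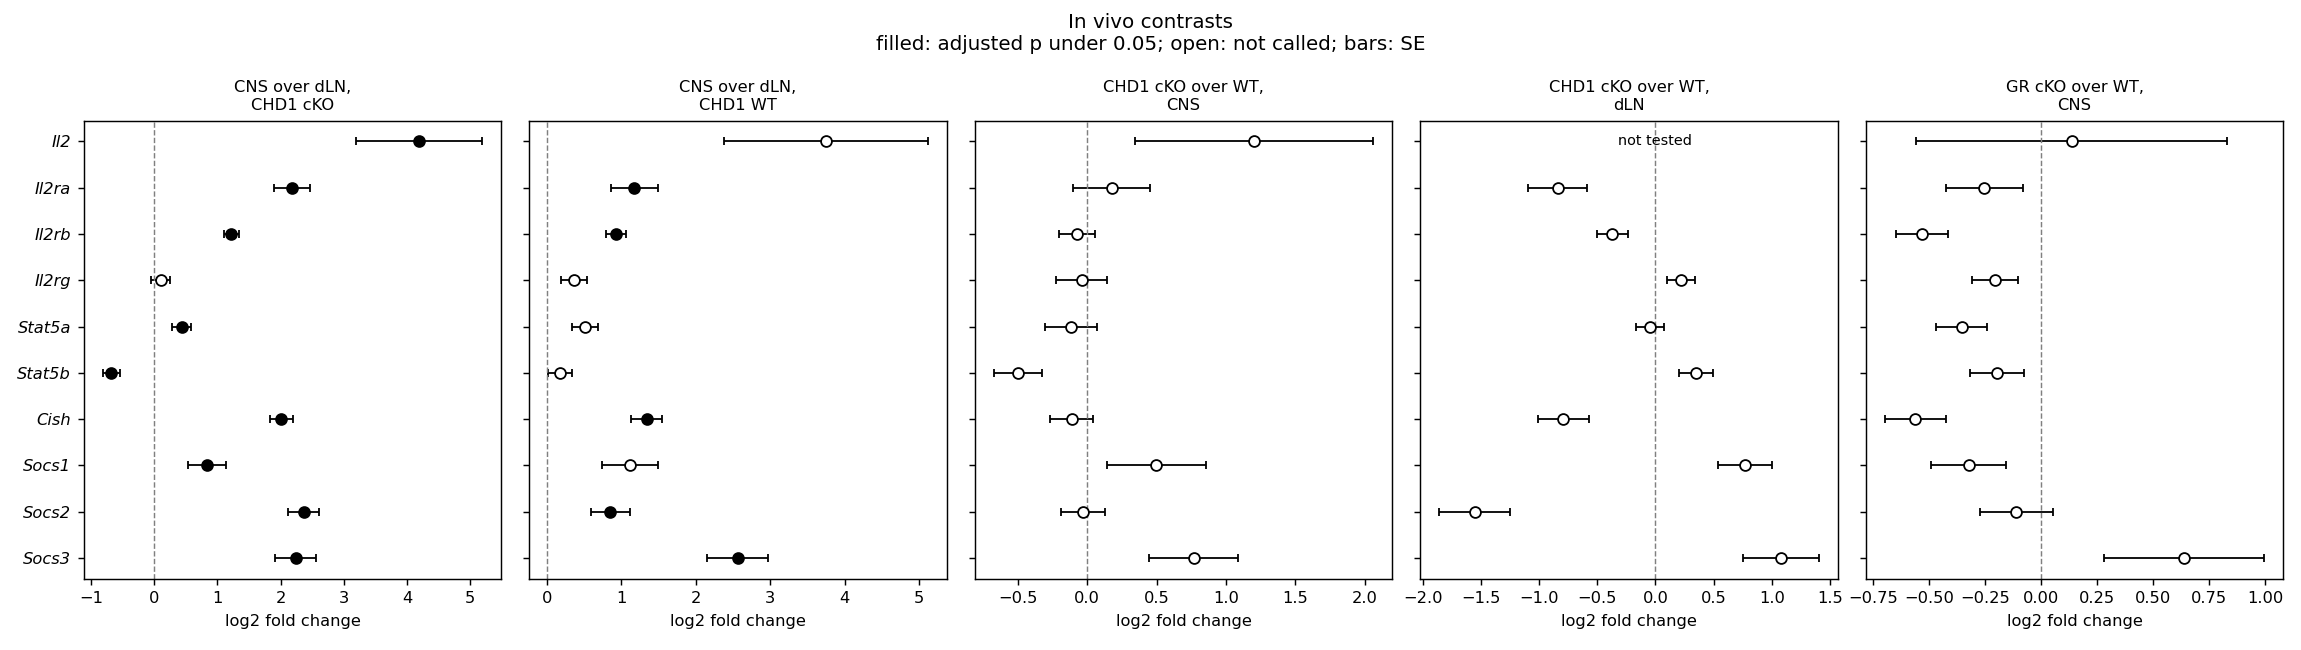
Log2 fold change with its SE (x axis) of each member (y axis) in the 5 in vivo contrasts, with filled points for an adjusted p under 0.05. In CNS over dLN, 9 members are filled in CHD1 cKO and 5 in CHD1 WT, and no member is filled in the 3 genotype contrasts.

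Across the whole series, mean Il2 was highest in the 2 control cultures (114 normalised CPM in KO and 110 in WT), whose ranges overlapped. It was 22.1 in CHD1 cKO CNS, 19.2 in WT Dex, 9.71 in CHD1 WT CNS, 6.81 in GR cKO, 6.08 in GR WT and 4.27 in KO Dex, and neighbours in this order overlapped. The dLN groups were lowest (1.19 in cKO and 0.727 in WT). CHD1, GR and in vitro libraries were scaled separately, so levels across them are set side by side without a test. Il2ra averaged 303 to 490 normalised CPM in the culture groups, 43.7 to 77.7 in the CNS groups and 17.1 to 30.5 in the dLN groups. Cish averaged 210 to 229 in culture, 104 to 162 in the CNS and 37.3 to 64.1 in the dLN. Per kilobase of merged annotated exons, Il2rg was the highest member in every group, with means of 185 to 286 normalised CPM per kb. In the in vivo groups Il2rb came next (29.0 to 70.7 per kb). In the control cultures Il2 reached 99.5 per kb in KO and 96.2 in WT, and it overlapped Il2ra (66.6 in KO, 85.8 in WT) in both.

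Gene positions in mm10 are Il2 chr3:37120523-37125959, Il2ra chr2:11642807-11693193, Il2rb chr15:78479256-78495271 and Il2rg chrX:101264378-101268255. The STAT5 genes are at chr11:100859351-100885169 (Stat5a) and chr11:100780731-100850724 (Stat5b). The inhibitors are at chr9:107296026-107302784 (Cish), chr16:10782240-10785536 (Socs1), chr10:95385362-95417180 (Socs2) and chr11:117966079-117970047 (Socs3). Of 50-base transcript stretches, 27.5% of those of Il2rg, 12.6% of Il2 and 9.35% of Cish occur in another annotated gene. Part of their counts may depend on how reads were divided, and the share of counts affected was not measured.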

How the data were processed

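The deposited values were expected counts (estimated counts) per gene symbol, which the authors made with RSEM 1.3.3 on mm10, according to the submitters' processing notes. All values are integers and were treated as rounded estimates. The aligner, annotation release and rounding are not given in the sources used here, and no other normalization was found in the 4 tables. Per the labels' protocols, 2000 cells were sorted per library, and cDNA was amplified for 12 cycles with a modified SMART-Seq2 method and no stated molecular identifiers.

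Groups were taken from the labels. Counts were tested with edgeR 4.0.16 in R 4.3.3 (filterByExpr at a minimum count of 10 and minimum total of 15, TMM scaling, quasi-likelihood F test), with Benjamini-Hochberg adjustment over all genes of a comparison and calls at 0.05. The SE is the absolute log2 fold change divided by the square root of F. CHD1 genotypes were fitted within each tissue's table, the 16 in vitro libraries together, and tissue and its interaction in 1 fit of 14 CHD1 libraries. Normalised CPM are counts over TMM-scaled totals, with TMM taken over the 14 CHD1, 8 GR or 16 in vitro libraries. For a zero, the floor printed equals 3 counts and covers counting error only. Exon lengths came from GENCODE M21 and sequences from RefSeq.

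The members, lists and tests were chosen with earlier results of these data known. Of the lists, genes were named only where called, at most 4 per list and comparison, by smallest p. Nearest patterns were taken among genes of at least 10 normalised CPM, with a prior of 1. Alternatives were DESeq2 1.42.0, edgeR with the size factors of DESeq2, all genes left unfiltered, removal of 16 repeat and ribosomal RNA features, a replicate block, other sets of libraries in the fit, leaving out each library, and scaling to T cell markers. Same-numbered libraries did not deviate together (r of -0.06 to 0.12), so numbers were not used as pairs. The code was tested on simulated data. No 2 libraries of the same group agreed within sampling noise (lowest chi-square per degree of freedom 3.74, over genes with at least 20 counts), and pairs across groups were not compared. Some genes that the naming rules reach are not reported here.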

Additional observations from a re-analysis of the deposited data

Results flagged for a closer look

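For 6 members the Dex effect in IL-23R KO cells differed from that in WT cells by the interaction test of the 16-library edgeR fit, with the KO effect minus the WT effect on the log2 scale as follows. Il2 was at -2.20, Socs2 at -0.80 and Il2ra at -0.30, while Il2rb was at 0.89, Stat5b at 0.85 and Stat5a at 0.48. The same test called 32.2% of all genes. The adjusted p values stand with each gene in the report, and that of Il2ra crossed the threshold in most repeats that left out 1 library. The KO Dex libraries also stood apart in mitochondrial and repeat shares and in T cell marker sum, and the part of these in the 6 values was not tested.

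In 80 groups of 4 libraries (10 members by 8 groups), 3 had 1 library far from the others by Dixon's criterion, where chance gives about 1 in 20 groups, or 4. Il2rg in WT control library 1 was at 512 normalised CPM, with the other 3 at 470 to 475. Stat5b in WT Dex library 4 was at 32.9, with the others at 29.2 to 29.8. Socs3 in WT control library 4 was at 66.3, with the others at 86.4 to 90.4.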

How the results depend on the processing

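Directions of the called members held under every alternative run, and most counts of called members did. The number called for CHD1 cKO against WT in the dLN was 0, and it was 1 with DESeq2, 4 with no filter on low counts, 3 with a replicate block and 1 in the joint fit of 14 libraries. For the CHD1 genotype by tissue interaction it was 0, and it was 2 with DESeq2 and 1 with no filter. For GR cKO against WT it was 0, and 2 with DESeq2. For IL-23R KO against WT without Dex it was 1, and 0 in the fit of only those 8 libraries. For CNS against dLN in CHD1 WT it was 5, and it was 7 with DESeq2, with no filter and in the fit of only the libraries compared, 6 without repeat features, and 2 when scaled to T cell markers. For Dex in IL-23R KO it was 6, and it was 7 with DESeq2 and with no filter and 4 in the fit of only those libraries. Leaving out 1 library in turn gave 0 to 5 in the dLN, 0 to 2 for the interaction with tissue, 0 to 0 for KO against WT controls and 3 to 5 for CNS against dLN in CHD1 WT. Stat5b in the WT tissue contrast, not called, was at -0.14 when scaled to T cell markers. The cause of these shifts was not tested.

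Over all genes, DESeq2 called 173 for CHD1 in the CNS (1 with edgeR), 318 in the dLN (7), 115 for GR (0), 113 for KO against WT controls (74) and 575 for the interaction with tissue (13). With no filter the counts were 72, 511 and 4 in the first 3 and 172 in the last. A replicate block gave 3 for CHD1 in the CNS, 613 in the dLN and 52 for the interaction, and the joint fit gave 3 and 192 in the 2 tissues. DESeq2 size factors gave 7 for the interaction, the 8-library fit gave 42 for KO against WT controls, and scaling to T cell markers gave 0 for CHD1 in the CNS, 1241 for CNS against dLN in WT and 2 for the interaction. Leaving out a library gave 0 to 2 (CHD1 CNS), 0 to 990 (dLN), 0 to 2 (GR), 531 to 829 (Dex in WT, 874 with all), 26 to 77 (KO controls) and 0 to 648 (interaction with tissue). Whether numbers pair the libraries is not known. The replicate block added Il2ra, Socs2 and Socs3 in the dLN and removed Socs1 from the cKO tissue contrast. No paired analysis was possible for GR and for KO against WT because their groups share no numbers. Groups of 3 or 4 libraries limit what can be called, and Il2 in KO Dex and in vivo rests on few counts.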
